A study of Mus musculus with 6 samples.

Results

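The genes described here are 48 genes of macrophages and other myeloid cells, chosen by name from what is known of these cells, with earlier results of these data known. They were found by gene symbol, with older symbols accepted, in a deposited comparison of 3-methylcholanthrene (3MC) with vehicle that named 18033 genes. Of the 48 genes, 45 had at least 1 row there, 70 rows in all. Expression of the other 3 (Mpeg1, Pirb and Lyn) was not analysed here. Ovaries of Swiss mice, removed on postnatal day 3 to 4, were kept on culture inserts for 96 h, in 3 samples with 5 µM 3MC, a polycyclic aromatic hydrocarbon that activates the aryl hydrocarbon receptor, and in 3 samples with 0.01% dimethyl sulfoxide (DMSO). Both groups had the same medium, with fetal calf serum, basic fibroblast growth factor, leukemia inhibitory factor and stem cell factor, and the 3MC dose had been chosen in pilot studies for overt toxicity. RNA was read on Illumina Mouse Ref-8 v2 BeadChips of 25697 probes. Nothing in the labels tells whether replicates were independent cultures or litters. The p-values therefore refer to the variation among these samples, part or all of which may be technical, and having 3 arrays per group limits the precision.

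Macrophages are phagocytes that settle in tissues, the fetal and newborn ovary included, where they take up dying cells and debris. Their survival depends on the receptor for colony stimulating factor 1, and they sense their surroundings through scavenger receptors, lectins and Fc receptors, many of which signal through adaptors that carry an immunoreceptor tyrosine-based activation motif (ITAM). An explanted ovary keeps its resident cells, but no new leukocytes can reach it from blood or bone marrow.

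The comparison sheet names genes but not the probe identifiers of the arrays, so a row was linked to a probe by its ratio of 3MC to DMSO, where that ratio belonged to a single probe. This gave 41 of the 70 rows a value on every array, in 28 genes. Rows close to a ratio of 1 could rarely be linked, since many probes share such ratios: 417 of the 21630 rows within 0.2 of 0 on the log2 scale were linked, against 512 of the 540 rows that differed by 1.5-fold or more. The linked genes are therefore mostly those that differed, and their counts are read only against other linked genes.

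Of the 28 linked genes, 28 fell with 3MC and 0 rose, by limma's moderated test at an adjusted p of 0.05. The same call was made for 43% of the 2332 linked genes of the array in the downward direction and for 42.5% in the upward direction, and for 16.4% of the 12848 probes above the signal filter in the downward direction and 15.8% in the upward. A fall of 2-fold or more was called for 17 of the 28 genes (60.7%), against 3.47% of linked genes. The median log2 fold change was −1.06 over the 28 genes and −0.10 over the 2332. On each of the 28 probes every 3MC array read below every DMSO array, which was also so at 44.8% of linked genes and at 21.5% of all probes above the filter. Tyrobp, Rac2, Csf1r and Was had 3MC means below the signal filter of 6.28 and passed it only through their DMSO signal. Without that filter 28 genes fell and 0 rose as well. In whole ovaries, fewer macrophages and less RNA per macrophage cannot be told apart.

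Adjusted p-values of the 28 genes from limma ran from 2.12e-22 to 0.0040. These draw on a spread pooled over all probes, with 30.8 prior degrees of freedom against 4 from each probe's own arrays. The smallest p that an exact permutation of 3 against 3 arrays can give is 0.1, two-sided. Within a group the 3 arrays lay close together, with SDs of log2 signal from 0.0044 to 0.20 with DMSO and from 0.023 to 0.24 with 3MC.

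**Figure D1:**
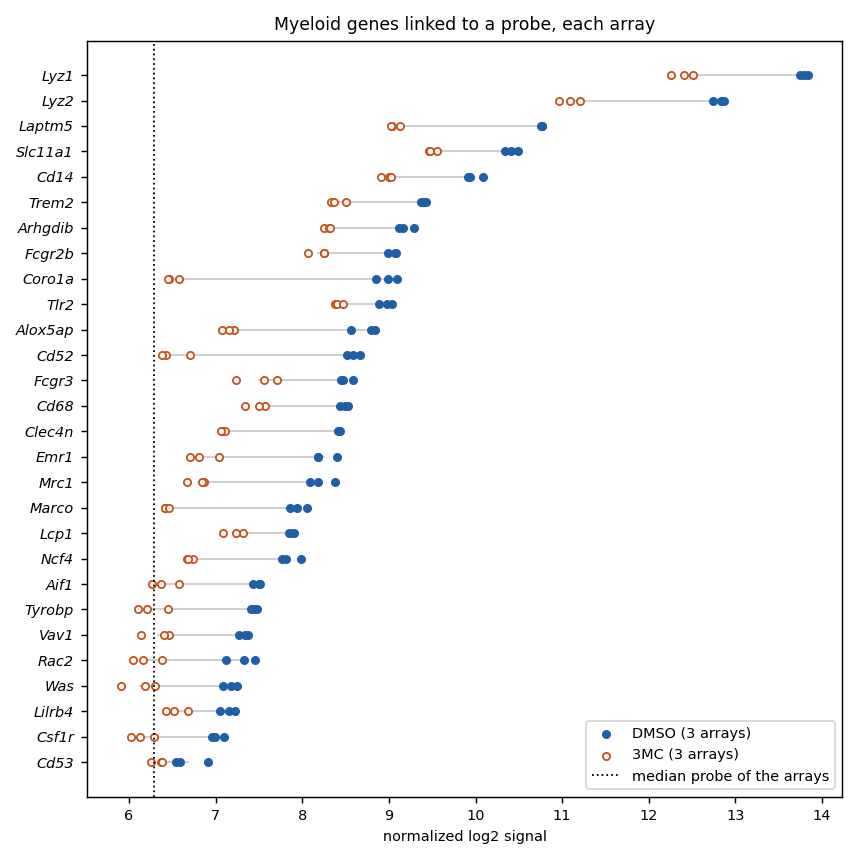
Normalized log2 signal (x axis) of the 28 myeloid genes linked to a probe (y axis), with 1 point for each of the 3 DMSO arrays (filled) and the 3 3MC arrays (open); the dotted line is the signal of the median probe, 6.29. For every gene the 3 open points lie to the left of the 3 filled points, and 12 genes lie within 0.5 of the dotted line on average with 3MC, against 1 gene with DMSO.

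Summed over the 28 probes on a linear scale, the normalized signal was 31923 to 33187 on the DMSO arrays and 12243 to 13103 on the 3MC arrays, 2.59-fold lower. Lysozyme probes made up most of that sum. Without Lyz1 and Lyz2 it was 11106 to 11494 with DMSO and 5002 to 5110 with 3MC, 2.23-fold lower.

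Promoter sequence is shown for some of the members whose start region held GAGGAAG or its reverse complement CTTCCTC. The myeloid transcription factor PU.1 recognises this purine-rich core. The motif was chosen because PU.1, on which the myeloid lineage depends, is itself a member. RefSeq promoters on build GRCm38.p6, from 250 bases before to 50 bases after each gene's start, matched 33 of the 48 members. The motif was in 11 of these 33 promoters (33.3%), counting both strands, against 15.4% of 27025 genes. It was in 7 of 18 promoters of genes that fell (Cd53, Fcgr3, Laptm5, Marco, Mrc1, Trem2 and Vav1). It was also in 4 of the other 15 (Csf2ra, Fcgr1, Itgam and Pirb). None of those 15 members was linked, so none has a test here. Csf2ra, Fcgr1 and Itgam had ratios of 1.134, 1.035 and 1.022 in the authors' deposited table, and Pirb had no row. The stretches shown, of Marco, Mrc1, Trem2 and Vav1, are all from genes that fell. A match is only a match of letters. Capitals mark the motif in the stretches below, each written 5′ to 3′ on the gene's strand. The Marco stretch is chr1:120505119-120505215 (minus strand), and its motif begins 146 bases before the start. The Mrc1 stretch is chr2:14229333-14229413 (plus strand), with the motif 36 bases before the start, and a second copy lies further upstream. The Trem2 stretch is chr17:48346315-48346400 (plus strand), with the motif 41 bases before the start. The Vav1 stretch is chr17:57279044-57279099 (plus strand), with the motif 11 bases before the start.
Marco: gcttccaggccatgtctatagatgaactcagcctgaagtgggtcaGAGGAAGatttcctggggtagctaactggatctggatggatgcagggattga
Mrc1: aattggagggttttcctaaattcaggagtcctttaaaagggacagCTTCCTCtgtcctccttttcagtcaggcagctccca
Trem2: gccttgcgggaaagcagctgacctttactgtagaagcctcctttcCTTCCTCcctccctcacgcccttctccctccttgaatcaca
Vav1: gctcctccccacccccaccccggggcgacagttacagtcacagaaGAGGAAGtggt

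The ETS-IRF composite element, a site of PU.1 with an interferon regulatory factor searched on both strands, was in 4 of the 33 promoters (12.1%), those of Cd68, Clec7a, Cybb and Fcgr2b, against 3.16% of all genes. It shares its core letters with the first motif. The TATA box letters TATAAA were in 15.2% of member promoters and 15.7% of all, and the GC box letters GGGCGG in 36.4% and 38.2%.

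In what follows, the values of a gene are normalized log2 signals on replicates 1, 2 and 3 of each group, and its fall is the log2 fold change with its SE. Lyz2, lysozyme M, which cleaves bacterial cell walls and is widely used as a myeloid marker, read 12.83, 12.86 and 12.74 with DMSO and 11.21, 10.96 and 11.09 with 3MC, and fell by 1.72 ± 0.088 (log2 fold change and its SE, 3 arrays per group, limma adjusted p = 8.25e-18). In unnormalized scanner signal these arrays read 8417.1, 7761.6 and 7438.3 with DMSO and 3150.2, 1697.7 and 1676.5 with 3MC. Every 3MC array was far below the DMSO arrays, and 3MC replicate 1, which had the brightest scan of all 6 arrays, was the highest of the 3 before normalization. Laptm5, a lysosomal membrane protein of blood cells, read 10.76, 10.77 and 10.76 with DMSO and 9.04, 9.02 and 9.13 with 3MC and fell by 1.70 ± 0.084. Its DMSO arrays were almost identical. Slc11a1, the metal ion transporter of the phagosome, read 10.41, 10.33 and 10.50 with DMSO and 9.46, 9.48 and 9.56 with 3MC and fell by 0.91 ± 0.086. Cd68, a lysosomal glycoprotein used to stain macrophages, read 8.50, 8.53 and 8.44 with DMSO and 7.34, 7.57 and 7.51 with 3MC and fell by 1.02 ± 0.087. Both genes dropped on all 3 arrays by more than the span of either group.

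Lyz1, the other lysozyme gene, is nearly identical to Lyz2 in sequence, so which of the genes a lysozyme probe reads is uncertain. Its brightest probe, listed under the older symbol Lyz, read 13.79, 13.84 and 13.75 with DMSO and 12.25, 12.40 and 12.51 with 3MC and fell by 1.41 ± 0.088. The authors' deposited table gave this row a ratio of 0.361 and the other 2 Lyz1 rows ratios of 0.858 and 1.002. The first of those 2 was linked to a probe too dim to pass the signal filter, so 1 of the 3 Lyz1 rows was tested.

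Of 6 surface receptors used to mark resident macrophages or their scavenging, 4 were linked and fell, as did 43% of all linked genes. The other 2, Cd163 and Msr1, could not be linked. Csf1r, the receptor for colony stimulating factor 1 and the growth factor receptor of the lineage, read 7.10, 6.96 and 6.999 with DMSO and 6.30, 6.03 and 6.13 with 3MC and fell by 0.87 ± 0.089 (limma adjusted p = 6.45e-10). With 3MC its arrays lay around the signal of the median probe, and the files used hold no detection calls that would show whether it still read above background. Emr1, which encodes the F4/80 antigen that marks mouse macrophages, read 8.40, 8.19 and 8.18 with DMSO and 6.81, 7.04 and 6.70 with 3MC, and fell by 1.41 ± 0.093. Mrc1, the mannose receptor of tissue macrophages, read 8.38, 8.18 and 8.10 with DMSO and 6.87, 6.67 and 6.84 with 3MC and fell by 1.42 ± 0.091. Marco, a scavenger receptor that binds bacteria and particles, read 7.93, 8.06 and 7.86 with DMSO and 6.42, 6.42 and 6.46 with 3MC and fell by 1.52 ± 0.086. These last 3 genes each fell by 2.65-fold or more, and no 3MC array came near a DMSO array.

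Cd163, the haemoglobin scavenger receptor of macrophages, had 2 rows in the authors' deposited table with ratios of 1.008 and 0.984. Msr1, scavenger receptor A, had a ratio of 1.037 in the authors' deposited table. Neither gene could be linked to a probe, so whether their probes read above background is not known, and a ratio near 1 cannot be told apart from a probe that detects nothing.

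Of 5 lectins and innate immune receptors among the members, 4 were linked and fell, as did 43% of all linked genes, and Clec7a could not be linked. Clec4n, the C-type lectin dectin-2, which binds fungal mannans, read 8.43, 8.44 and 8.41 with DMSO and 7.09, 7.11 and 7.06 with 3MC and fell by 1.34 ± 0.084. Cd14, the co-receptor for bacterial lipopolysaccharide, read 10.09, 9.93 and 9.91 with DMSO and 9.002, 9.03 and 8.91 with 3MC and fell by 1.00 ± 0.087. Tlr2, a receptor for bacterial lipoproteins, read 9.03, 8.88 and 8.97 with DMSO and 8.38, 8.41 and 8.47 with 3MC and fell by 0.55 ± 0.085. The groups were apart at all 3 genes, but the fall of Tlr2 was the second smallest of the 28. Trem2, a lipid-binding receptor through which macrophages and microglia take up debris, read 9.43, 9.37 and 9.41 with DMSO and 8.34, 8.36 and 8.51 with 3MC and fell by 1.00 ± 0.086. Clec7a, the beta-glucan receptor dectin-1, had 2 rows in the authors' deposited table, with ratios of 0.917 and 1.001, and neither was linked.

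Among Fc receptors, which bind antibody, Fcgr3 and Fcgr2b fell. Fcgr3, an activating receptor, read 8.45, 8.47 and 8.58 with DMSO and 7.24, 7.56 and 7.71 with 3MC and fell by 1.00 ± 0.097, and had the widest spread with 3MC of the 28 genes (SD 0.24). Fcgr2b, the inhibitory receptor, read 9.08, 9.08 and 8.98 with DMSO and 8.25, 8.25 and 8.06 with 3MC and fell by 0.86 ± 0.087. Lilrb4, an inhibitory receptor of myeloid cells, read 7.22, 7.05 and 7.15 with DMSO and 6.42, 6.68 and 6.52 with 3MC and fell by 0.60 ± 0.089. Fcgr1, the high-affinity receptor, had a ratio of 1.035 in the authors' deposited table, and Fcer1g, the shared signalling chain of activating Fc receptors, had 1.027 there. The Fcgr1 and Fcer1g rows were not linked. Over 8 listed genes of beta2 integrins and Fc receptors, 7 of them members, 2 were 1.5-fold or more lower in the authors' deposited table. Another 6 lay within 0.2 of 0 on the log2 scale. Of all genes, 1.28% were that far lower and 80.3% lay within 0.2 of 0.

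Integrins and the pan-leukocyte antigen had ratios close to 1. In the authors' deposited table Itgam, the alpha chain of the macrophage integrin Mac-1, had a ratio of 1.022. Itgb2, the beta chain it shares with other leukocyte integrins, had a ratio of 0.993 in the authors' deposited table, and Itgax, the alpha chain known as CD11c, had 1.004. Ptprc, the leukocyte common antigen CD45, had 2 rows in the authors' deposited table with ratios of 1.051 and 1.017. Cd48, a ligand on leukocytes, had a ratio of 0.992 in the authors' deposited table. None of these rows was linked, and 5 to 31 probes, some above the signal filter and some below it, could stand behind each of 26 of the 29 unlinked rows.

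The receptors for granulocyte-macrophage colony stimulating factor were likewise near 1. Csf2ra, the alpha chain, had the highest ratio of all 45 genes in the authors' deposited table, 1.134 with the authors' unadjusted p of 0.062. The 2 probes that could stand behind that row had mean log2 signals of 8.05 and 8.70, both above the filter, so the signal behind this ratio was not dim. Csf2rb, the beta chain, had 3 rows in the authors' deposited table with ratios of 1.028, 1.029 and 1.030.

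Tyrobp, the ITAM adaptor DAP12 that carries the signal of Trem2, read 7.45, 7.48 and 7.41 with DMSO and 6.45, 6.21 and 6.11 with 3MC and fell by 1.19 ± 0.091. Vav1, a guanine nucleotide exchange factor of blood cells that acts downstream of ITAM receptors, read 7.28, 7.34 and 7.38 with DMSO and 6.47, 6.14 and 6.40 with 3MC and fell by 0.99 ± 0.091. Trem2 and its adaptor thus both fell by about 1 on the log2 scale or more. The 3MC mean of Tyrobp was below the signal filter, so how far its probe could still fall is not known. Of 10 listed genes of ITAM adaptors and their kinases, 4 of them members, 4 were linked. All 4 fell, Lat2 and Btk beside Tyrobp and Vav1, as did 43% of all linked genes. The other 6 could not be linked: the authors' deposited table gave ratios of 0.936 for the kinase Syk and 0.957 for the kinase Fgr.

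**Figure D2:**
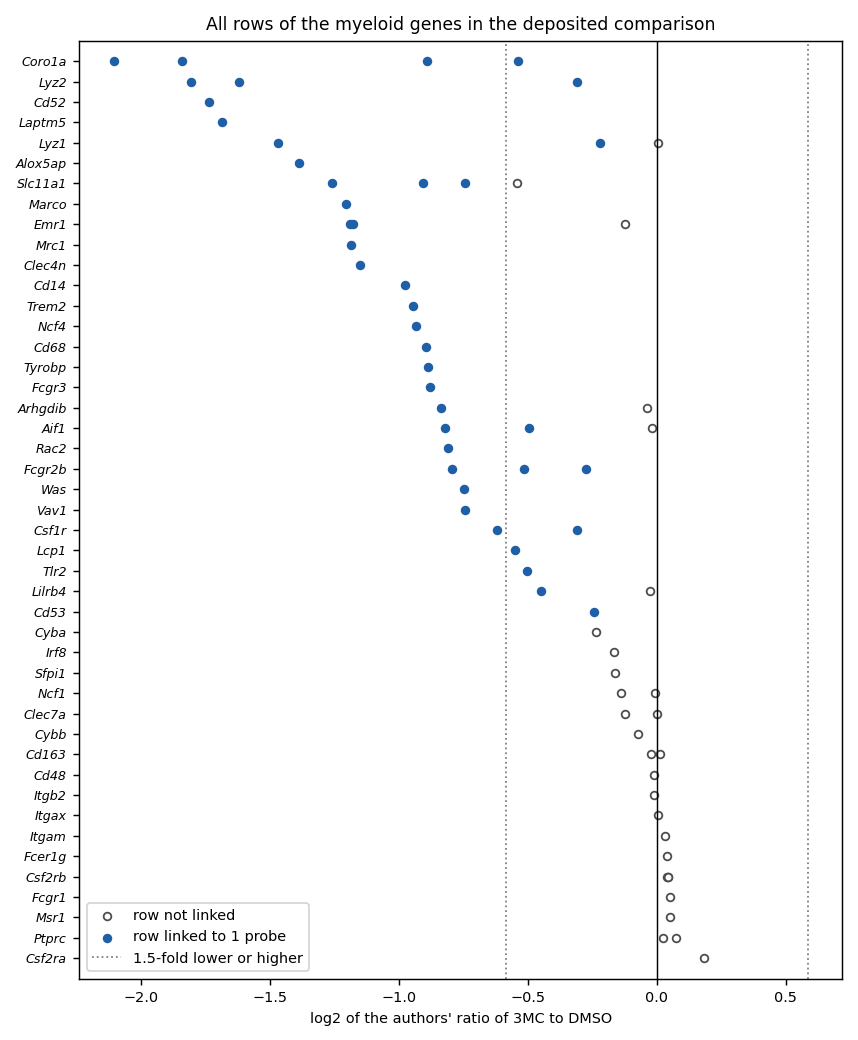
All 70 rows of the 45 myeloid genes in the authors' deposited table, as the log2 ratio of 3MC to DMSO (x axis) for each gene (y axis), with rows linked to 1 probe filled, rows not linked open and dotted lines at 1.5-fold. By the authors' deposited table, 24 genes have a row beyond the left dotted line and 0 genes beyond the right one, while 16 genes lie within 0.2 of 0.

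Of the phagocyte NADPH oxidase, which makes superoxide in the phagosome, 2 listed genes were linked and fell, as did 43% of all linked genes. Ncf4, the p40 regulatory subunit, read 7.81, 7.77 and 7.99 with DMSO and 6.67, 6.75 and 6.68 with 3MC and fell by 1.16 ± 0.087. Rac2, the blood cell GTPase that activates the oxidase, read 7.33, 7.12 and 7.46 with DMSO and 6.05, 6.38 and 6.16 with 3MC and fell by 1.10 ± 0.096. Both were apart from DMSO on all arrays. The 3MC mean of Rac2 was below the signal filter, so how far its probe could still fall is not known. The membrane subunits had ratios nearer to 1 in the authors' deposited table: Cybb, the catalytic chain, 0.950, and Cyba, its partner, 0.849 with the authors' unadjusted p of 0.047. All 3 probes that could stand behind the Cyba row read above the filter, with mean log2 signals of 6.74 to 11.28. Ncf1, the p47 organiser, had 2 rows in the authors' deposited table with ratios of 0.908 and 0.994. The rows of Cybb, Cyba and Ncf1 were not linked. For Cybb and Ncf1 a ratio near 1 cannot be told apart from a probe that detects nothing. Over the 7 listed oxidase genes, 2 were 1.5-fold or more lower in the authors' deposited table and 4 were within 0.2 of 0 on the log2 scale. Of all genes, 1.28% were that far lower and 80.3% were within 0.2 of 0. Whether the subunits differed from each other was not tested.

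Genes of the leukocyte cytoskeleton held the deepest fall. Coro1a, coronin 1A, an actin-binding protein of blood cells, read 8.99, 8.85 and 9.10 with DMSO and 6.46, 6.45 and 6.58 with 3MC and fell by 2.48 ± 0.088, or 5.60-fold (limma adjusted p = 2.12e-22). Its scanner signal was 600.1, 508.9 and 582.4 with DMSO and 139.0, 105.1 and 110.4 with 3MC, close to the median scanner signal of those arrays (124.5, 98.1 and 99.4). With 3MC the probe was thus near the level of the median probe. Was, the Wiskott-Aldrich protein that drives actin branching, read 7.17, 7.08 and 7.25 with DMSO and 6.19, 6.30 and 5.91 with 3MC and fell by 1.04 ± 0.094. Arhgdib, a GDP dissociation inhibitor of small GTPases in blood cells, read 9.12, 9.29 and 9.17 with DMSO and 8.25, 8.31 and 8.32 with 3MC and fell by 0.89 ± 0.086. Lcp1, the actin-bundling protein L-plastin, read 7.86, 7.84 and 7.91 with DMSO and 7.32, 7.09 and 7.23 with 3MC and fell by 0.65 ± 0.087. Aif1, the calcium-binding protein Iba1 that marks microglia and macrophages, read 7.50, 7.52 and 7.43 with DMSO and 6.58, 6.37 and 6.26 with 3MC and fell by 1.08 ± 0.09. In these 5 genes the sizes ranged from the largest of the 28 to the fourth smallest. The 3MC mean of Was was below the signal filter, so how far its probe could still fall is not known.

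Of the remaining surface and lipid mediator genes, Cd52, a small glycoprotein anchored on leukocytes, read 8.59, 8.52 and 8.67 with DMSO and 6.42, 6.71 and 6.38 with 3MC and fell by 2.09 ± 0.092, or 4.27-fold. Alox5ap, the activating protein of 5-lipoxygenase in leukotriene synthesis, read 8.84, 8.80 and 8.57 with DMSO and 7.07, 7.21 and 7.16 with 3MC and fell by 1.59 ± 0.089. Cd53, a tetraspanin of leukocytes, read 6.91, 6.54 and 6.59 with DMSO and 6.37, 6.38 and 6.25 with 3MC and fell by 0.35 ± 0.094 (limma adjusted p = 0.0040). Here DMSO replicate 1 stood above the other DMSO arrays, and without it the log2 fold change was −0.23 with a limma adjusted p of 0.079. No other gene of the 28 lost its call when 1 array was left out.

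The transcription factors that define the lineage had ratios close to 1. Sfpi1, which encodes PU.1, had a ratio of 0.894 in the authors' deposited table, with the authors' unadjusted p of 0.0090. Irf8, an interferon regulatory factor needed for monocyte development, had a ratio of 0.890 in the authors' deposited table. Neither row was linked, so neither has a test here. Of the 5 probes that could stand behind the Sfpi1 row 3 read above the signal filter, and of the 7 behind the Irf8 row 5 did. A dim probe would draw such a ratio towards 1, so the size of any fall is not known.

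Over all 45 genes, including those that could not be linked, the authors' deposited table gives the fullest count. By the authors' deposited table, 24 genes (53.3%) were 1.5-fold or more lower in 3MC by their row farthest from 1, against 1.28% of all 18033 genes, and 0 were 1.5-fold or more higher, against 1.4% of all genes. Of these 24, 11 were 2-fold or more lower. By the authors' deposited table, 5 genes (Cd53, Cyba, Lilrb4, Tlr2 and Lcp1) were lower by less than 1.5-fold but by more than 0.2 on the log2 scale. The other 16 genes (35.6%) lay within 0.2 of 0, 8 of them with a ratio above 1, against 80.3% of all genes. The median log2 ratio, with the rows of a gene averaged, was −0.51 for the 45 genes and 0.00 for all genes in the authors' deposited table. Most members were thus either 1.5-fold or more lower or near 1, with few between.

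Where a gene had several rows, these often differed. Coro1a had 4 linked probes above the signal filter, with log2 fold changes of −2.48, −2.28, −1.23 and −0.79 in order of DMSO signal. Slc11a1 had 3 such probes, at −0.91, −1.51 and −0.96 in the same order, and Fcgr2b had 3, at −0.86, −0.68 and −0.40. The brightest probe fell most in Coro1a and Fcgr2b but least in Slc11a1. Lyz2 had 2 such probes, at −1.72 and −1.64, and another linked probe below the filter at −0.48. Emr1 had 2, at −1.41 and −1.46, and the 2 of Aif1 fell by 1.08 and 0.68. The other linked probes below the filter, 1 each of Csf1r and Lyz1, stood at −0.48 and −0.34. All 41 linked rows were lower on every 3MC array than on any DMSO array. This was also so at 44.8% of linked genes, by 1 probe each, and at 21.5% of all probes above the filter. Linking favours rows that differed. Unlinked rows of genes that fell included an Emr1 row with a ratio of 0.919 and an Aif1 row with a ratio of 0.988 in the authors' deposited table.

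**Figure D3:**
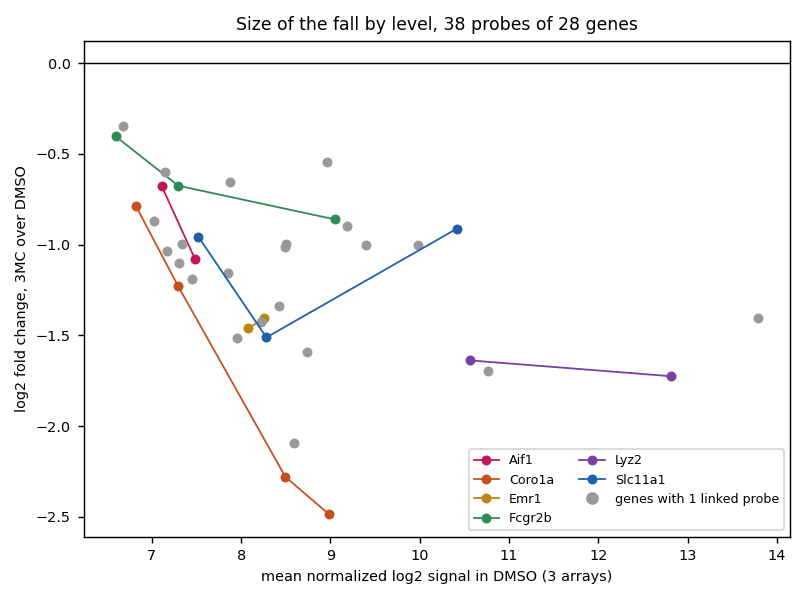
Log2 fold change of 3MC over DMSO (y axis) against the mean normalized log2 signal with DMSO (x axis) for the 38 linked probes above the signal filter, with lines joining probes of 1 gene. In Coro1a the fall deepens from −0.79 to −2.48 as the probe gets brighter, and Slc11a1 does not follow that order.

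Across these 38 probes the log2 fold change went with the DMSO signal at a Pearson correlation of −0.41 and a Spearman correlation of −0.50. This is a description over probes that share the same 6 arrays and in part the same gene. The DMSO signal is part of both quantities, which tends to make the correlation negative. With 3MC, 12 of the 28 genes had a mean within 0.5 of the median probe on the log2 scale, and how far such probes could still fall is not known. The 11 genes that stayed more than 1 above it had log2 fold changes of −1.72 to −0.55, with a median of −0.999. The falls were therefore not limited to probes that read near the median with 3MC.

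Of 76 other listed macrophage and myeloid genes with a row, 16 were 1.5-fold or more lower and 2 were higher in the authors' deposited table, where 1.28% and 1.4% of all genes were. Another 38 were within 0.2 of 0 on the log2 scale, against 80.3% of all genes, and the median log2 ratio in the authors' deposited table was −0.15. Of the 26 that were linked, 22 fell and 3 rose by limma's test, with a median log2 fold change of −0.84. Over all 2332 linked genes 43% fell and 42.5% rose, with a median of −0.10. As with the members, linking favours genes that differed. Some of the 22, such as Cx3cr1 and Pld4 (3MC means 5.96 and 5.91), passed the signal filter of 6.28 only through their DMSO signal. Without that filter 22 fell and 3 rose as well. C1qb, a chain of the complement component C1q that macrophages secrete, fell by 1.86 ± 0.096, and C1qc, another chain, by 1.82 ± 0.091. Ms4a6d, a membrane protein of myeloid cells, fell by 1.44 ± 0.086. The 2 genes nearest to 1 were Adap2 and Cd83, with ratios of 1.001 each in the authors' deposited table. The 3 that rose, named after their values were seen, were Pf4, a chemokine of platelets and some macrophages (log2 fold change 1.28 ± 0.094), P2ry6, a receptor for uridine diphosphate (0.92 ± 0.085), and Cebpb, a transcription factor with wide expression (0.33 ± 0.085).

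Pf4 read 6.98, 6.80 and 6.97 with DMSO and 8.05, 8.41 and 8.13 with 3MC, so all 3MC arrays were higher. Cebpb lost its call when arrays were only centred on their medians. Of the 9 listed growth factors and chemoattractants of macrophages, Cx3cl1, a membrane-bound chemokine, rose by 0.90 ± 0.087 (limma adjusted p = 1.98e-10). Its receptor Cx3cr1 fell by 1.33 ± 0.087. The ligands of the Csf1r receptor were nearer to 1, with ratios of 0.950 for Csf1 and 0.926 for Il34 in the authors' deposited table. Ccl2, a chemokine that draws monocytes, had a ratio of 0.625 in the authors' deposited table and was not linked.

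**Figure D4:**
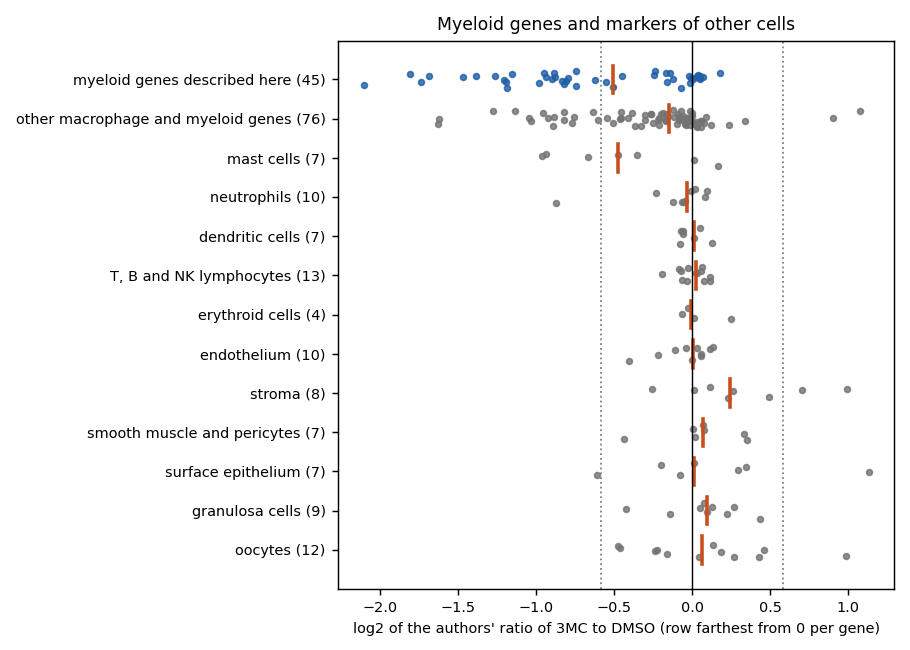
Log2 of the authors' ratio of 3MC to DMSO (x axis) for the myeloid genes described here (blue) and for marker lists of other cells (grey, number of genes in brackets), with 1 point per gene at its row farthest from 0, dotted lines at 1.5-fold and an orange bar at the median when the rows of a gene are averaged. The bar lies at −0.51 for the 45 myeloid genes, at −0.47 for 7 mast cell genes and between −0.15 and 0.25 for the other lists.

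Markers of other cells were set beside these values. Of 7 mast cell genes, 3 were 1.5-fold or more lower in the authors' deposited table, where 1.28% of all genes were. Over all linked genes, 43% fell by limma's test. Of the 7 mast cell genes, 5 were linked. Of these 5, Tpsab1, Cpa3, Cma1 and Tpsb2, which encode mast cell proteases, fell by 1.30 ± 0.088, 1.24 ± 0.087, 0.92 ± 0.089 and 0.52 ± 0.087. The fifth, Hdc, the histamine-forming enzyme, had a log2 fold change of 0.17 ± 0.092 (limma adjusted p = 0.17), and Ms4a2, the mast cell chain of the IgE receptor, had a ratio of 1.010 in the authors' deposited table. The summed linear signal of the 5 linked mast cell probes was 1716 to 1977 with DMSO and 1561 to 1769 with 3MC. Hdc made up most of that sum, and without it the 4 protease probes summed to 582 to 612 with DMSO and 280.2 to 297 with 3MC, 2.05-fold lower. The offset of 50 in each probe's value makes up a large part of these protease sums with 3MC. It draws the ratio towards 1, so the size of this fall is uncertain. The part of mast cells in the fall of genes they share with macrophages was not tested.

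Of 10 neutrophil genes, Ltf, lactoferrin, fell by 0.86 ± 0.086 and was the only one 1.5-fold or more lower in the authors' deposited table, and S100a8 had a ratio of 0.850 there. Summed signal could be formed for Ltf alone, at 1766 to 1827 with DMSO and 933 to 1074 with 3MC. None of the 13 lymphocyte genes and none of the 7 dendritic cell genes was 1.5-fold lower or higher in the authors' deposited table, with medians of 0.02 and 0.01 on the log2 scale, and none was linked. For these genes a ratio near 1 thus cannot be told apart from a probe that detects nothing. Markers of the ovary's own cells went both ways. Of 6 linked oocyte genes, 4 rose (Oosp1, Bmp15, Zp3 and Gdf9) and 2 fell (Figla and Sohlh1) by limma's test, with log2 fold changes from −0.50 to 1.01. Of 2 linked granulosa cell genes, Amhr2 fell by 0.41 ± 0.086 and Wnt4 rose by 0.42 ± 0.087. By the same test 43% of all linked genes fell and 42.5% rose, so mixed calls are not particular to these markers. Wnt4, Bmp15, Zp3 and Gdf9 lost their calls when arrays were only centred on their medians, and Gdf9 also with cyclic loess, with a normexp offset of 16 and without any of 4 single arrays (DMSO replicates 1 and 3 and 3MC replicates 1 and 2). Median centring without 3MC replicate 1 turned the direction of Gdf9. Of the markers of granulosa cells, endothelium, smooth muscle and erythroid cells, 0 were 1.5-fold lower or higher in the authors' deposited table. Oosp1 of oocytes, Col3a1 and Tcf21 of stroma and Upk1b of epithelium were higher there, and Krt19 of epithelium was lower. Of all genes 1.28% were that far lower and 1.4% higher, so counts of 0 in such short lists are near the array's share. By limma's test the 2 linked endothelial genes fell, Esam by 0.41 ± 0.094 and Cldn5 by 0.29 ± 0.090. Of 3 linked smooth muscle genes, Myh11 fell by 0.55 ± 0.093 and Acta2 and Des rose. Cldn5, Acta2 and Des lost their calls under median centring, and Cldn5 also without DMSO replicate 3 and without 3MC replicate 2.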

How the data were processed

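Total RNA of whole cultured ovaries was converted to biotinylated cRNA and read on Illumina arrays, per the labels' protocols, and samples were grouped by their titles. The authors deposited scanner intensity for 25697 probes, not background subtracted (lowest signal 72.7 to 80.0 per array, median 98.1 to 124.5), and a second table that reads as log2 signal, with array medians of 6.62 to 6.63. How it was normalized is not stated in the labels or headers, and lumi is named in the submitters' processing notes. The authors' comparison sheet holds, per the file headers, the 3MC to DMSO ratio, fold change and unadjusted p-value of each row. The model behind it is not stated, and its p-values were smaller at 74.0% of linked rows than the 6 arrays alone give. A gene ontology sheet with an enrichment score was deposited too and was not used.

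Intensities were corrected with limma (version 3.58.1, R 4.3.3; normexp with an offset of 50), taken to the log2 scale and quantile normalized. Probes with a mean above the median probe were kept (12848) and compared with lmFit and eBayes, two-sided, with Benjamini-Hochberg adjustment over the kept probes at a threshold of 0.05, after the procedure was tested on simulated data. Rows were linked to a probe where the log2 ratio and the difference of group means in the log2 value table were each other's only partner within 5e-05, which linked 2656 of 25697 rows. A gene was represented by its linked and kept probe of highest mean signal. Symbols were updated by accession through a RefSeq table (GRCm38.p6, used for names and promoters only) at 23739 rows. Of the other gene lists, counts are given, and for other myeloid genes the 3 largest and 2 smallest ratios. The members, the lists and the rules were chosen with earlier results of these data known. Alternatives covered normalization, background, filter, link tolerance, the replicate block and leaving out each array. Replicate numbers are not known to pair the arrays. Same-numbered arrays deviated from their group means with correlations of -0.079, -0.096 and 0.084, and differently numbered ones with -0.068 to 0.141. With 3 arrays per group these values cannot exclude a pairing.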

Additional observations from a re-analysis of the deposited data

How the results depend on the processing

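All 28 linked genes kept a fall in direction under each of the 15 settings that refitted the arrays, and 418 of 420 gene values kept their side of the threshold. Both exceptions were Cd53, with a log2 fold change of -0.36 (limma adjusted p = 0.16) under median centring and -0.23 (limma adjusted p = 0.079) without DMSO replicate 1. The number of members called was 27 or 28 with 1 array left out, and the median log2 fold change then ran from -1.12 to -1.02. Across the other settings the median ran from -1.48 (normexp offset 16) to -0.90 (the authors' values). Over the whole array 4136 probes passed, and 3339 to 3607 with 1 array left out. Median centring gave 1106, of which 31.0% were higher against 49.0% in the reported fit. Leaving out 3MC replicate 1 together with median centring, chosen after seeing the data, gave 5670, 568 higher and 5102 lower, with the median of all probes at -0.20. The cause was not tested. With the replicate number as a block 3986 probes and 28 members passed and the median was -1.06, and the numbers are not known to pair the arrays. Link tolerances of 0.0001 and 2e-05 gave 25 of 25 and 27 of 28 genes. In the authors' deposited table the 24 genes at 1.5-fold became 11 at 2-fold and 15 by the row nearest to 1, both narrower by construction. Linking by the authors' p or a platform annotation was not run, since the model behind that p could not be recovered and no annotation was used. Dim probes near the array median limit the size of a measurable fall, and 17 members have no per-array value.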
